A study of Mus musculus with 12 samples.

Results

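Whether deleting a gene and inhibiting its product change the same transcripts was measured here for KAT7 in thymic epithelial cells (TECs). For every gene, the effect of Kat7 deletion (knockout minus control) was set against the effect of the inhibitor WM-3835 (WM-3835 minus DMSO), and the difference of the effects was tested on the log2 scale. All 25867 genes with a symbol, of 27179 genes listed, were members, and 18670 of them passed the filter on low counts and were tested. RNA was sequenced from TECs sorted out of C57BL/6 fetal thymic organ cultures, with 3 biological replicates in each of 4 groups. Lobes were taken at stage E15.5, held for 4 to 5 days in 1.35 mM 2'-deoxyguanosine to remove thymocytes, and then held for 3 days with 10 µg/mL of an activating antibody against RANK. These steps were common to the 4 groups. The controls were tamoxifen-treated cultures of a genotype given as control, and their counts are labelled wt. The knockouts were tamoxifen-treated cultures carrying RosaCre-ERT2, a tamoxifen-activated recombinase under the broadly active Rosa26 locus, and floxed Kat7 (Kat7fl/fl), so deletion was not limited to epithelium. The other 2 groups, the only ones called wild-type below, were wild-type cultures given the solvent DMSO or WM-3835. The sources used here give neither the dose nor the duration of WM-3835, so it is not known here whether the perturbations were of like strength.

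KAT7, also called HBO1, transfers acetyl groups to lysines of histones H3 and H4 and works in complexes with BRPF or JADE scaffold proteins, an ING protein and MEAF6. Deletion removes the protein from its complexes, whereas a catalytic inhibitor blocks acetyl transfer and leaves the protein in place. Medullary TECs express many genes of other tissues under the control of AIRE and so show self-antigens to developing T cells. Cortical TECs support the early steps of T-cell development, and both kinds of TEC arise from shared progenitors.

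The gene that was targeted differed between the perturbations. Kat7 (Entrez ID 217127, chromosome 11, 95271853 to 95310246 on mm10) was found at 89.0, 76.5 and 76.0 CPM (counts scaled by TMM to a common library size) in the 3 controls, against 0.606, 0.81 and 0.869 CPM in the knockouts. Wild-type cultures had 88.4, 84.6 and 88.9 CPM with DMSO and 98.5, 100.4 and 99.3 CPM with WM-3835. The knockout libraries were all near 0 and the inhibitor libraries all lay above their DMSO libraries. The difference of effects was -6.93 (SE 0.16), the effect of knockout on the log2 scale minus that of WM-3835, with an edgeR quasi-likelihood adjusted p of 2.47e-15.

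The libraries held 26656847 to 52368012 counts. Replicates of the knockout experiment were more variable than those of the inhibitor experiment, with a biological coefficient of variation of 0.465 (control), 0.295 (knockout), 0.101 (DMSO) and 0.126 (WM-3835). Xist, the RNA of the inactive X chromosome, ranged from 2.34 to 3.17 CPM over the controls, measured 1709, 1191 and 4.94 CPM in knockouts 1, 2 and 3, and ranged from 846 to 2118 CPM over all 6 wild-type libraries. Its level therefore moved with the knockout comparison but not with the inhibitor comparison. The Y-linked gene Ddx3y was at 83.0 to 105 CPM in controls, 30.1, 67.8 and 112 CPM in knockouts 1, 2 and 3, 25.2 to 52.7 CPM with DMSO and 26.2 to 74.8 CPM with WM-3835. A pair of further fits, called the Xist fits, entered the log2 CPM of Xist as a covariate or kept only knockout 3 among the knockouts, and their values are given in that order. The latter has 1 knockout library, which is assumed to vary like the other groups. Fewer calls in these fits do not by themselves show smaller changes, so the median difference of a list is given with them. The part of Xist in the results was not otherwise tested. The epithelial gene Epcam was at 515 to 801 CPM in all libraries. The 15 thymocyte markers summed to 14.2 to 30.4 CPM, with Rag2 at 0 in every library of every group. The 15 fibroblast markers summed to 405 to 635 CPM in control and 328 to 353 in knockout libraries, and to 200 to 229 CPM with DMSO and 257 to 296 with WM-3835. In bulk samples such as these, fewer cells of a type and less RNA per cell cannot be told apart.

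The effects differed at 1887 genes, 10.1% of those tested (Benjamini-Hochberg adjusted p under 0.05). The knockout effect was the higher at 824 genes (4.41%) and the lower at 1063 (5.69%). The share with the knockout effect higher was thus 43.7% of the differences, but 50.3% with upper-quartile scaling, 49.5% without a filter on low counts and 49.9% without control 1. The knockout was called against control at 2646 genes (14.2%) and WM-3835 against DMSO at 3490 (18.7%). Of these, 1001 genes were called in both, which is 37.8% of the knockout calls and 28.7% of the inhibitor calls. Among the 1001, 757 moved the same way (4.05% of genes tested) and 244 moved in opposite ways (1.31%). The 757 comprised 470 genes that fell in both (2.52%) and 287 that rose in both (1.54%). The 244 comprised 153 genes that fell in the knockout and rose with the inhibitor, and 91 that did the reverse. Every one of the 244 was also called in the test of the difference, which opposite calls in the same fit make nearly certain. A further 496 genes were called in the knockout alone and differed from the inhibitor effect, 935 were called with the inhibitor alone and differed, and 129 differed without a call in either comparison. Many genes called in a single comparison were not shown to differ, 1149 of the knockout and 1554 of the inhibitor. The difference was called in each of the 12 fits that left out a library at 1137 of the 1887 genes (60.3%). The Xist fits called 693 and 784 differences, with 482 and 704 calls in the knockout and 3412 and 3397 with the inhibitor. When each comparison was fitted on its own 6 libraries, so that the groups did not share an estimate of the spread, 1774 differences were called, with 1157 calls in the knockout and 6070 with the inhibitor.

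**Figure D1:**
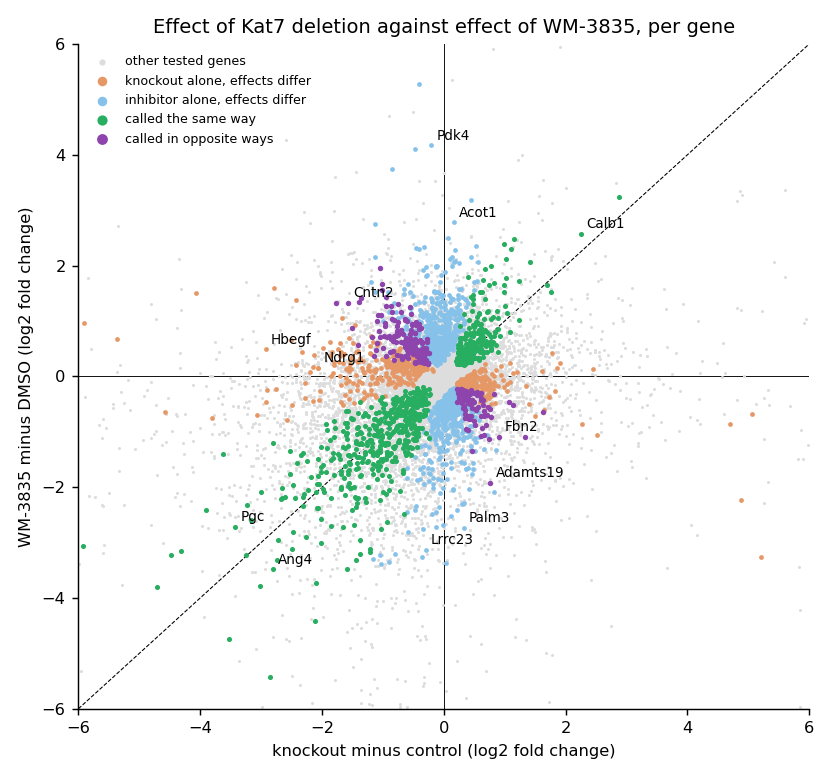
Each point is a gene, placed by its log2 fold change in the knockout (horizontal axis) and with WM-3835 (vertical axis), and coloured by the class of its calls; 187 genes with a change beyond 6 lie outside the frame. The 757 genes called the same way lie in the lower left and upper right, with more and larger falls than rises, and the 244 called in opposite ways lie in the other corners.

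Across the 18670 genes the effects were weakly related, with a Pearson correlation of 0.28 and a Spearman correlation of 0.27. Genes are not independent replicates, and the points share the same libraries. Of all genes tested, 11150 (59.7%) had the same sign in both comparisons, against 68.1% of the genes called in the knockout and 66.7% of those called with the inhibitor. Leaving out single libraries moved the Pearson correlation to between 0.19 and 0.29, the lowest without control 1. With only genes over 1 CPM in at least 3 libraries it was 0.37.

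The 470 genes that fell in both had a median change of -0.94 in the knockout and -1.03 with WM-3835, and 180 of them fell more than 2-fold in both. Pgc, the precursor of a stomach protease (Entrez ID 109820, chromosome 17, 47726842 to 47734478), was at 13.6, 11.2 and 16.8 CPM in control and 0.386, 2.80 and 0.765 CPM in knockout libraries. It was at 8.40, 10.5 and 9.25 CPM with DMSO and at 0.739, 2.71 and 0.798 CPM with WM-3835. Treated and untreated libraries did not overlap in either experiment. The fall was 3.43 (SE 0.55, adjusted p = 0.000437) in the knockout and 2.72 (SE 0.53, adjusted p = 0.00116) with the inhibitor, and the difference of -0.71 had a 95% interval of -2.23 to 0.81. Ang4, an antimicrobial protein of the gut, was at 13.0 to 16.8 CPM (control), 1.66 to 2.89 CPM (knockout), 5.24 to 6.32 CPM (DMSO) and 0.312 to 0.861 CPM (WM-3835). Bpifb5, of a family of secreted lipid-binding proteins, fell by 3.25 and by 3.23, with a difference of -0.02 (SE 0.75). The other genes of the rule were Thy1, a surface glycoprotein of fibroblasts, neurons and T cells, Siglec15, a sialic acid-binding receptor, the gasdermin Gsdmc2, the serine protease Prss23 and Crabp1, which binds retinoic acid. Each fell by at least 2.32 in both comparisons, and their differences of effects, from -0.91 to 0.76, did not pass (adjusted p of 0.45 to 0.746). Gsdmc2 has near-identical copies, so its counts are uncertain.

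The bases before the start sites of these genes are shown because a start-site element was more frequent among them than among all genes. Below are the 60 bases before the start (RefSeq, GRCm38.p6) of 4 genes that fell in both, with TATAA in capitals. They had the largest falls among genes with a TATAA 40 to 20 bases before the start. Genes were ranked by the smaller of the knockout and inhibitor falls. Only genes with a single promoter window in RefSeq and a mean log2 CPM of at least 1 were ranked. Pgc lies at chr17:47726782-47726841 (plus strand), Reg3b at chr6:78370825-78370884 (plus), Cilp at chr9:65265120-65265179 (plus) and Gsdmc3 at chr15:63878559-63878618 (minus).
Pgc: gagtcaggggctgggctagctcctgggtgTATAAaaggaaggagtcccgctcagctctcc
Reg3b: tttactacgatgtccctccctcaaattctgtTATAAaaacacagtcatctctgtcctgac
Cilp: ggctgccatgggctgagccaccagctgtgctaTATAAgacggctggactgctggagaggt
Gsdmc3: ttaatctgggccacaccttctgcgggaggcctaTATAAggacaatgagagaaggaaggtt

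TATAA, searched on the strand of the gene between 40 and 20 bases before the start, was present in 32 of the 289 genes that fell in both and had a single promoter window in RefSeq (11.1%). It was present in 441 of all 11477 tested genes with a single window (3.84%). The share was 4.07% among genes that rose in both (7 of 172) and 4.6% among genes that fell in the knockout and rose with the inhibitor (4 of 87). It was 1.75% for the reverse (1 of 57), 5.19% for the knockout alone (16 of 308) and 5.36% for the inhibitor alone (30 of 560). Low-expressed genes hold TATAA more often, so the shares were also set out by expression quartile. From the lowest to the highest quartile, TATAA was present in 18.8% (n = 16), 13.5% (n = 126), 6.33% (n = 79) and 10.3% (n = 68) of the genes that fell in both. The shares over all genes in those quartiles were 7.18%, 4.22%, 1.57% and 2.41%. The median number of CG dinucleotides in the 250 bases before the start was 11 for genes that fell in both, 14 for all tested genes and 15 for genes that rose in both.

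Reg3b, Cilp and Gsdmc3 were chosen by this promoter rule, which takes large falls in both experiments. The standard errors of Reg3b and Gsdmc3 are too wide to call their falls alike in size. Reg3b, a gut lectin that kills bacteria, fell by 2.29 (SE 0.53) and 2.13 (SE 0.53), with adjusted p of 0.00719 and 0.00806. Cilp, a cartilage matrix protein, fell by 2.10 (SE 0.28) and 2.09 (SE 0.29), with libraries at 13.8 to 19.1 CPM in control, 2.54 to 4.97 in knockout, 8.79 to 9.90 in DMSO and 1.6 to 3.23 with WM-3835. The gasdermin Gsdmc3 fell by 2.66 (SE 0.39) and 2.01 (SE 0.39).

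The genes that rose in both changed less than those that fell. Their median change was 0.42 in the knockout and 0.47 with WM-3835, and 13 of the 287 rose more than 2-fold in both. Calb1, a calcium-binding protein, was at 0.686, 0.896 and 1.45 CPM in control and 4.08, 4.64 and 5.63 CPM in knockout libraries. With DMSO it was at 1.41, 1.53 and 1.33 CPM and with WM-3835 at 6.02, 10.5 and 8.88 CPM. Every treated library lay above every untreated library, and the rises of 2.24 (SE 0.35, adjusted p = 0.000317) and 2.57 (SE 0.35, adjusted p = 3.39e-05) differed by -0.33 (SE 0.48). S100a4, a calcium-binding protein found in motile cells, rose from 9.70 to 12.8 CPM up to 23.6 to 28.3 CPM in the knockout and from 6.94 to 8.83 CPM up to 21.8 to 30.4 CPM with WM-3835. Lipm, a lipase of the outer epidermis, rose by 1.42 (SE 0.15) and 2.07 (SE 0.15), a difference of -0.65 that narrowly missed the threshold (adjusted p = 0.0535). Cys1, a protein of primary cilia, and Kcna1, a potassium channel, rose by 1.52 to 1.77 in both. Hoxa7, a homeobox gene of the body axis, was at 0 to 0.26 CPM in control and 0.221 to 1.02 in knockout libraries, and at 0.748 to 1.08 CPM with DMSO and 6.73 to 12.1 with WM-3835, so its knockout libraries overlapped its DMSO libraries. Cyp2b19, an epidermal cytochrome P450, rose by 1.04 and 1.14 but stood at 8.59 to 10.5 CPM in knockout and 1.32 to 2.90 CPM in WM-3835 libraries.

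**Figure D2:**
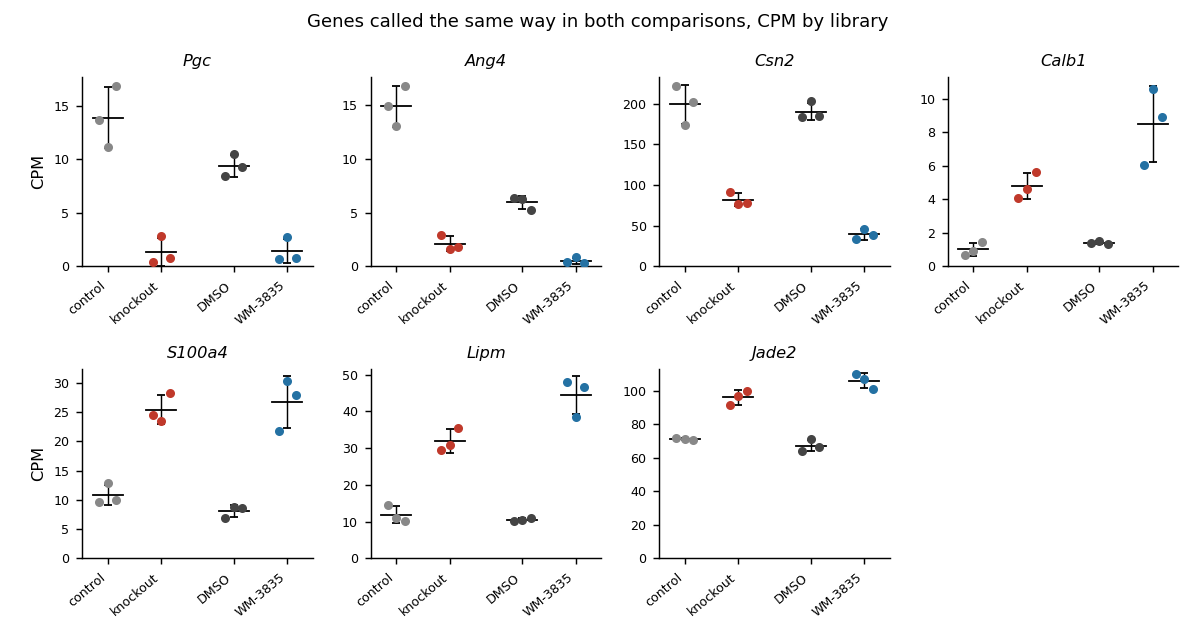
CPM in each library (points), with the mean (bar) and SD (whisker) of 3 libraries, for 7 genes called the same way in both comparisons. Pgc, Ang4 and Csn2 are lower, and Calb1, S100a4, Lipm and Jade2 higher, in every knockout library than in every control library and in every WM-3835 library than in every DMSO library.

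A common direction did not always mean a common size. The effects differed at 83 of the 757 genes called the same way, and the inhibitor change was the larger at 66 of these and the knockout change at 17. Aire (Entrez ID 11634, chromosome 10, 78030022 to 78043610) was at 596, 668 and 636 CPM in control and 542, 490 and 577 CPM in knockout libraries. It was at 1123, 1215 and 1260 CPM with DMSO and at 510, 586 and 572 CPM with WM-3835. The treated groups overlapped, and the DMSO cultures alone stood apart. The difference of effects was 0.87 (SE 0.11, adjusted p = 4.7e-05), made of a gap of 0.92 between DMSO and control and of 0.05 between WM-3835 and knockout. The falls in both comparisons passed together in 2 of the 12 fits that left out a library, whereas the difference passed in all 12. Csn2, the milk protein beta-casein and an antigen that depends on AIRE, was at 174 to 222 CPM in control and 184 to 203 CPM in DMSO libraries. It was at 77.1 to 91.5 CPM in knockout and 33.2 to 46.1 CPM in WM-3835 libraries, falls of 1.28 and 2.27 that differed by 1.00 (SE 0.16, adjusted p = 0.000368). Elapor1, an endosome and lysosome protein linked to oestrogen response, rose in both and more with the inhibitor, by 1.15 against 2.49, a difference of -1.34 (SE 0.29, adjusted p = 0.00578), while its treated libraries overlapped at 28.6 to 45.1 CPM.

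Of the genes called in opposite ways, Cntn2, a neuronal adhesion molecule (Entrez ID 21367, chromosome 1, 132509425 to 132543251), was at 30.2, 24.7 and 22.7 CPM in control and 7.88, 8.65 and 9.49 CPM in knockout libraries. With DMSO it was at 9.42, 7.26 and 10.8 CPM and with WM-3835 at 24.5, 21.5 and 23.2 CPM. The control and WM-3835 libraries were thus high and the knockout and DMSO libraries low, with changes of -1.58 (SE 0.17) and 1.33 (SE 0.17) and a difference of -2.90 (SE 0.24, adjusted p = 6.18e-07). Ccl9, a chemokine that draws myeloid cells, was at 24.3 to 61.5 CPM (control), 14.4 to 15.8 CPM (knockout), 5.09 to 5.83 CPM (DMSO) and 12.2 to 15.8 CPM (WM-3835). Here the treated groups overlapped, and the difference of -2.77 (SE 0.35, adjusted p = 5.05e-05) came with a gap of -2.82 between DMSO and control. Il24, a cytokine of the IL-10 family, and Islr, a mesenchymal leucine-rich repeat protein, fell by 1.77 and 1.08 in the knockout and rose by 1.32 and 1.10 with WM-3835. Cdkn2a, which encodes the cell cycle inhibitor p16, was at 1.18 to 2.47 CPM in knockout and 5.16 to 5.76 CPM in WM-3835 libraries, against 2.78 to 7.0 in control and 1.69 to 2.62 in DMSO libraries. Its call in both comparisons held in 5 of the 12 fits without a library and that of Il24 in 7, whereas those of Ccl9, Cntn2 and Islr held in all 12.

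The reverse pattern included genes of the extracellular matrix. Fbn2, a microfibril protein, was at 14.5, 35 and 21.5 CPM in control and 41.0, 49.0 and 43.0 CPM in knockout libraries. It was at 35.7, 42.9 and 41.7 CPM with DMSO and 17.3, 21.9 and 17.3 CPM with WM-3835. Its changes were 0.90 (SE 0.21) and -1.09 (SE 0.21), a difference of 1.99 (SE 0.30, adjusted p = 0.00028). The matrix protease Adamts19, the matrix protein Egflam and the cartilage protein Cnmd rose by 0.74 to 1.34 in the knockout and fell by 1.09 to 1.92 with WM-3835. The calls of Cnmd in both comparisons held in 3 of the 12 fits without a library, those of Adamts19 in 7, of Egflam in 11 and of Fbn2 in all 12. Without WM-3835 replicate 1 the number of genes called in opposite ways was 149, and without DMSO replicate 3 it was 154. It was 50 and 53 in the Xist fits.

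**Figure D3:**
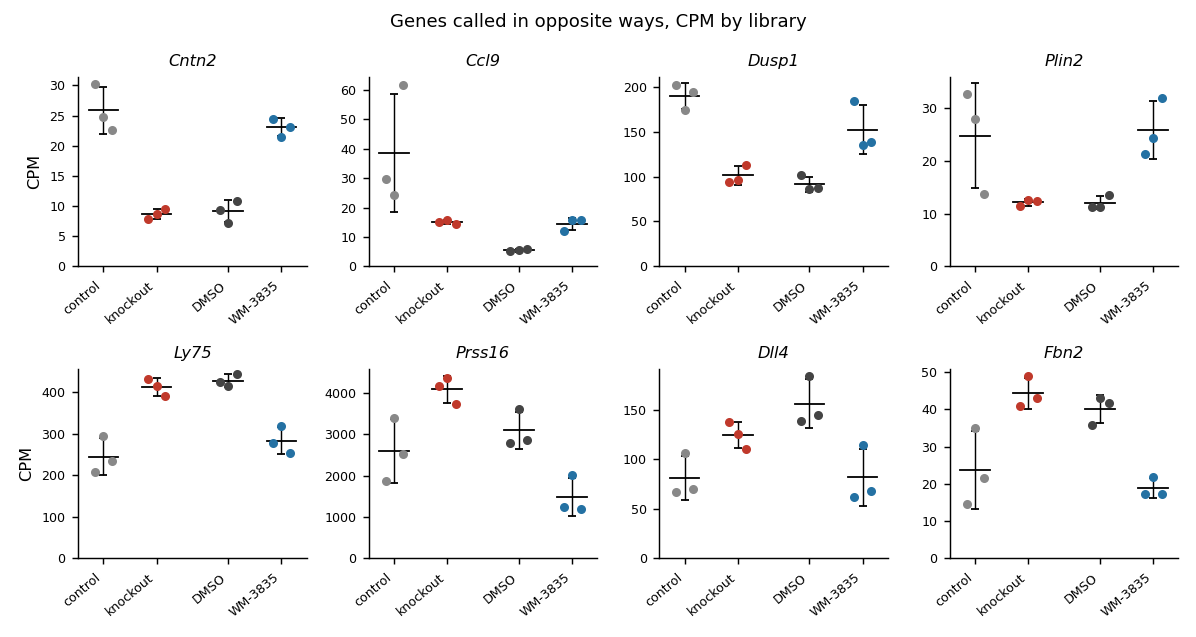
CPM in each library (points), with the mean (bar) and SD (whisker) of 3 libraries, for 8 genes called in opposite ways. Cntn2, Ccl9, Dusp1 and Plin2 fell in the knockout and rose with WM-3835, and Ly75, Prss16, Dll4 and Fbn2 rose in the knockout and fell with WM-3835.

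The effects differed at most markers of cortical TECs. Of 15 tested, 5 rose and 0 fell in the knockout, 2 rose and 9 fell with WM-3835, and the effects differed at 10, always with the knockout effect the higher. The backgrounds are 6.12% of genes for rises in the knockout, 9.35% for falls with WM-3835 and 10.1% for differences. The median change of the list was 0.25 in the knockout and -0.59 with WM-3835, against -0.01 for all genes in each comparison. Ly75, an endocytic receptor (Entrez ID 17076, chromosome 2, 60292103 to 60383273), was at 207, 293 and 234 CPM in control and 432, 415 and 390 CPM in knockout libraries. It was at 425, 414 and 444 CPM with DMSO and 277, 319 and 255 CPM with WM-3835, a difference of effects of 1.35 (SE 0.15, adjusted p = 1.27e-05). The thymus protease Prss16 rose by 0.66 and fell by 1.06, and the Notch ligand Dll4, named after its values were seen, rose by 0.62 and fell by 0.93. Il7, a growth factor for thymocytes, and the protease Ctsl changed by 0.04 (SE 0.13) and 0.03 (SE 0.10) in the knockout, neither of which passed, and fell by 1.15 and 0.90 with WM-3835. Enpep, a surface peptidase, was called the same way instead, rising by 0.91 and 0.73. The count of differences was 8 to 10 when a library was left out. The rises in the knockout numbered 2 without control 1, knockout 1 or knockout 2, and 3 with DESeq2. In the Xist fits 6 and 5 differences were called, with a median difference of 0.75 in both against 0.92, and 2 members rose in the knockout.

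Of 16 markers of immature medullary TECs tested, 10 fell and 0 rose in the knockout (background of falls 8.06%). With WM-3835 7 fell and 4 rose (backgrounds 9.35% and 9.34%). The effects differed at 12 (background 10.1%), and the knockout effect was the lower at 10 of them. The median of the list was -0.60 for DMSO minus control and -0.05 for WM-3835 minus knockout. Apoe, a lipid carrier, was at 151, 163 and 159 CPM in control and 63.9, 55.4 and 56.7 CPM in knockout libraries. It was at 131, 120.3 and 132 CPM with DMSO and 56.6, 62.8 and 66.3 CPM with WM-3835. Its falls of 1.42 (SE 0.08) and 1.05 (SE 0.08) brought both treated groups into 1 range, and the knockout fall was the larger (difference -0.38, SE 0.12, adjusted p = 0.0476). Krt15, a keratin of basal cells, was at 9.14 to 24.7 CPM (control), 7.33 to 8.97 CPM (knockout), 1.80 to 2.13 CPM (DMSO) and 6.18 to 6.49 CPM (WM-3835), changes of -1.02 and 1.68. The transcription factor Sox4 and the tight junction gene Cldn3 rose with WM-3835 by 0.79 and 1.10 and changed by -0.06 (SE 0.08) and -0.16 (SE 0.14) in the knockout, neither of which passed. Pdpn, a mucin-like surface protein, fell by 0.91 in the knockout and changed by 0.24 (SE 0.13, adjusted p = 0.225) with WM-3835. Differences were called at 8 to 12 members without a library. In the Xist fits the effects differed at 6 and 7, with median differences of -0.71 and -0.69 against -0.72, and 7 members fell in the knockout.

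Of 18 markers of mature medullary TECs tested, 11 fell in the knockout, 9 fell with WM-3835, 6 fell in both and none rose. The backgrounds of these falls are 8.06%, 9.35% and 2.52%, and that of differences is 10.1%. Median changes were -0.25 and -0.26. The effects differed at 3 members, Aire, the maturation marker Cd83 and the costimulatory receptor gene Cd40, each with the larger fall with WM-3835. Cd83 changed by 0.28 (SE 0.22, adjusted p = 0.466) in the knockout and fell by 1.55 (SE 0.23) with WM-3835. H2-DMb2, which helps to load MHC class II molecules and has a near-identical copy, fell by 0.87 and 1.04, and H2-Aa of class II itself by 0.24 and 0.33. Most falls of this list in the knockout were small, and their number depended on single libraries. It was 3 without control 2, knockout 1 or knockout 2, 4 without knockout 3, 6 without DMSO 1, DMSO 3 or WM-3835 3, and 7 without WM-3835 1. Those in both numbered 1 without control 2 or knockout 2, 2 without knockout 1 or knockout 3, and 3 without DMSO 1, DMSO 2, WM-3835 1 or WM-3835 3. In the Xist fits 1 and 2 fell in the knockout, and the same numbers in both, while 2 differences were called, with a median difference of 0.11 in each against 0.13.

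In the gene lists that stand for other tissues or specialised cells within the medulla, the number of members that differed ran from 0 of 15 muscle-like and 0 of 16 tuft-cell genes to 5 of 10 microfold-like genes (background 10.1%). Among 18 tested of 22 listed antigens that depend on AIRE, 4 fell in the knockout and 6 with WM-3835 (backgrounds 8.06% and 9.35%). All 4 of the former were among the latter (background of falls in both 2.52%), and 1 member differed, Csn2. S100a8, a calcium-binding protein of neutrophils, fell by 1.62 and 2.14. The median changes were -1.29 and -1.72, but counts were low, and 0 of the 18 had a 95% interval of the difference within 1 on the log2 scale, so agreement could not be judged gene by gene. Without DMSO 3 or WM-3835 3, 3 members fell with WM-3835 and 2 in both, and 10 fell with WM-3835 when each comparison was fitted on its own 6 libraries. Without control 3, knockout 2 or WM-3835 2, 2 differences were called. In the Xist fits 1 member fell in the knockout and in both, with median differences of 0.18 and 0.17 against 0.23. Of 16 genes of ciliated cells, 2 fell in the knockout and 11 with WM-3835, and 3 differed (backgrounds 8.06%, 9.35% and 10.1%). Without control 2, 4 fell in the knockout, and without control 3, knockout 2 or knockout 3, 1 fell. In the Xist fits 1 fell in the knockout and 1 differed, with median differences of 0.62 and 0.66 against 0.84. Foxj1, the master regulator of motile cilia, fell alike by 1.17 (SE 0.17) and 1.37 (SE 0.17), from 32.2 to 57.2 CPM down to 17.7 to 19.8 CPM and from 33.9 to 36.4 CPM down to 13.2 to 14.3 CPM. Mcidas, which acts above Foxj1 in multiciliated cells, changed by -0.01 (SE 0.47) in the knockout and fell by 2.69 (SE 0.49) with WM-3835, where DMSO libraries stood at 5.34 to 6.99 CPM and the other groups at 0.59 to 2.32 CPM. The ciliary dynein genes Dnah9 and Dnah5 fell by 0.69 and 1.34 with WM-3835 and changed by 0.33 and 0.01 in the knockout.

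Microfold-like genes, which in the gut mark the cells that take up antigen, differed at 5 of 10, always with the knockout effect the lower, and Ccl9 was the member called in opposite ways. Tnfaip2, a gene induced by TNF, rose in both, by 0.57 and 1.12, with a difference of -0.55 (SE 0.14, adjusted p = 0.017). Spib, a transcription factor of microfold cells, fell by 0.27 in the knockout and changed by 0.19 (SE 0.09, adjusted p = 0.163) with WM-3835. The count rested on single libraries, with 1 difference without knockout 1 or DMSO 3, 2 without knockout 2, DMSO 1 or any WM-3835 library, and 3 without control 1, control 3 or DMSO 2 and with upper-quartile scaling. Only 1 difference was called in each of the Xist fits, with median differences of -0.17 and -0.18 against -0.49. Neuronal and neuroendocrine genes differed at 6 of 26, with the knockout effect the higher at 3. Insm1, a transcription factor of neuroendocrine cells, changed by 0.33 (SE 0.11, adjusted p = 0.0509) in the knockout and fell by 0.59 with WM-3835. Cpe, which trims prohormones, fell by 2.91 (SE 0.44) in the knockout and changed by -0.25 (SE 0.43) with WM-3835. Enterocyte and hepatocyte genes differed at 4 of 19, with the knockout effect the lower at 3. Vil1, the villin of the gut brush border, rose by 1.44 with WM-3835 and changed by -0.31 (SE 0.21) in the knockout, a difference of -1.75 (SE 0.31, adjusted p = 0.00109). Either Xist fit called 1 difference in the neuronal and 1 in the enterocyte list. The neuronal median difference changed sign in them, from 0.14 to -0.30 and -0.27, and the enterocyte median was 0.01 against -0.01 and -0.04. Of 16 genes of the cornified envelope, 1 differed. That count was 0 without knockout 2, DMSO 2 or WM-3835 3, 2 without knockout 1, DMSO 1 or WM-3835 1, and 4 without control 3. No muscle-like gene differed in edgeR, DESeq2 or limma-voom, 1 had an unadjusted p under 0.05 in edgeR, and 1 differed without control 3.

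Tuft-cell genes had large gaps between the experiments and no called difference between the effects. Of 16 tested, 4 fell in the knockout, 3 with WM-3835 and 2 in both (backgrounds 8.06%, 9.35% and 2.52%). A difference was called at 0 of them in edgeR, DESeq2 and limma-voom, and 3 had an unadjusted p under 0.05 in edgeR. Without control 1, control 2 or DMSO 1, 2 differences were called. The falls in the knockout numbered 2 without control 1 or any 1 knockout library, 7 with limma-voom and 0 in either Xist fit. Those in both numbered 1 without any library other than control 3 or DMSO 1. The median difference was -0.14, and -0.19 and -0.12 in the Xist fits. The median change between DMSO and control was -3.42. Gnb3, a G-protein subunit of taste and tuft cells, was at 76.6 to 117 CPM in control and 65.7 to 79.8 CPM in knockout libraries, and at 10.9 to 14.3 CPM with DMSO and 5.80 to 7.18 CPM with WM-3835. Its falls were 0.43 and 0.94. Irag2, found in the files under that symbol for the older Lrmp, fell by 0.89 and 0.93 with a difference of 0.03 (SE 0.25).

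**Figure D4:**
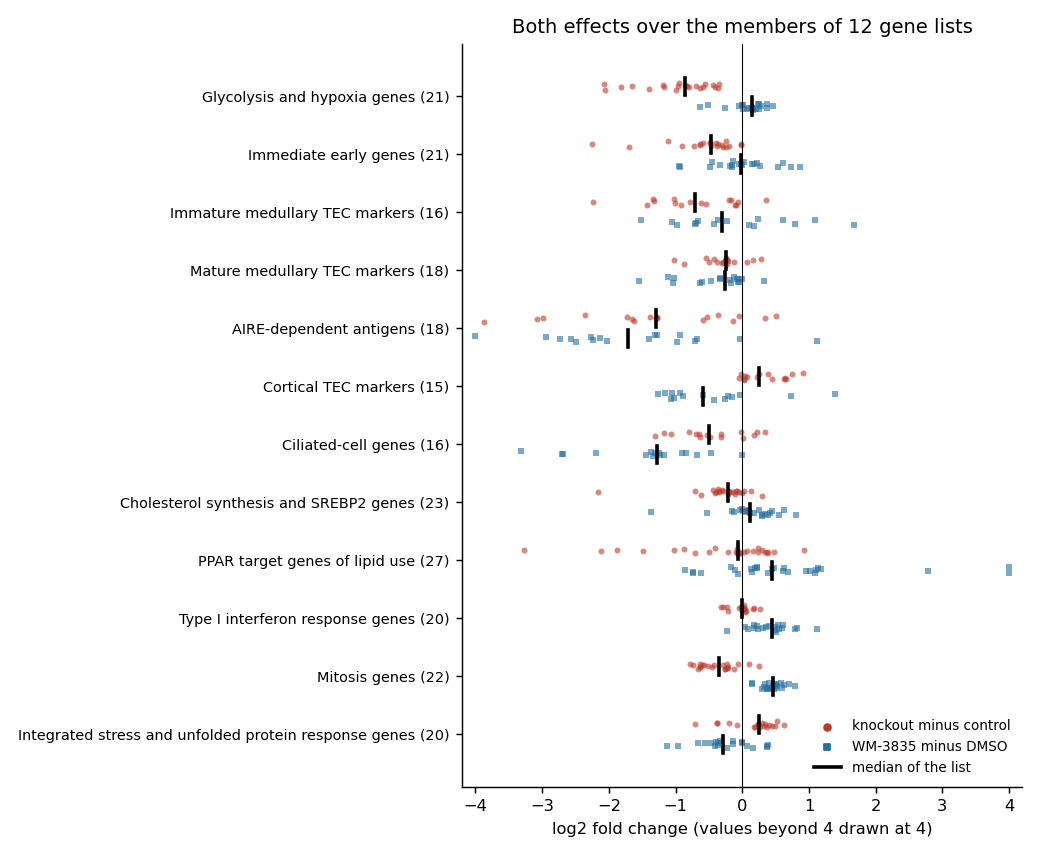
Log2 fold changes of the members of 12 gene lists, in the knockout (circles) and with WM-3835 (squares), with the median of each (bar); the number tested is in parentheses and values beyond 4 are drawn at 4. The glycolysis and mitosis lists have medians of -0.85 and -0.35 in the knockout and 0.15 and 0.47 with WM-3835, and the cortical list has medians of 0.25 and -0.59.

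Glycolysis and hypoxia genes had the highest share of differing effects of all the lists examined. All 21 fell in the knockout (background 8.06%), with a median of -0.85. With WM-3835 3 rose and 1 fell (backgrounds 9.34% and 9.35%), with a median of 0.15. Differing effects were found at 19 of 21 (background 10.1%), always with the knockout effect the lower. Ndrg1, a gene induced by low oxygen (Entrez ID 17988, chromosome 15, 66929318 to 66969641), was at 864, 484 and 423 CPM in control and 124, 156 and 143 CPM in knockout libraries. It was at 286, 264 and 292 CPM with DMSO and 350, 296 and 293 CPM with WM-3835. Every wild-type library lay between the knockout and the control libraries, and the difference of effects was -2.23 (SE 0.25, adjusted p = 1.68e-05). Egln3, an oxygen sensor that is itself induced by hypoxia, was at 125 to 221 CPM in control and 42.6 to 47.9 in knockout libraries, and at 42.4 to 55.0 CPM with DMSO and 47.2 to 56.4 with WM-3835. Its knockout level thus overlapped the wild-type level, and its controls alone were high. Ldha and Eno1, enzymes of lactate formation and of glycolysis, fell by 0.97 and 0.83 in the knockout and changed by 0.28 (SE 0.10) and 0.08 (SE 0.07) with WM-3835, where neither passed. Aldoa, Gpi1 and Pfkl, named after their values were seen because they were the 3 called in opposite ways, fell by 0.44, 0.36 and 0.64 and rose by 0.25, 0.38 and 0.37. Ankrd37, another hypoxia-induced gene, was the member called the same way, falling by 0.99 and 0.64, and Pdk1 was the other member whose difference did not pass. The median of DMSO minus control was -0.49 and that of WM-3835 minus knockout 0.44. Differences were called at 18 or 19 members without a library. The Xist fits called 12 and 14 differences and 12 and 13 falls in the knockout, with median differences of -0.91 and -0.90 against -0.96. Members called in opposite ways numbered 6 without control 1, 5 without control 3, 8 when each comparison was fitted on its own 6 libraries and 0 in either Xist fit.

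The promoters of this list were searched, after the values were seen, for ACGTG on either strand (CACGT on the other). ACGTG is the core of the element bound by hypoxia-inducible factors. It was present in the 250 bases before the start in 9 of the 15 members with a single window (60%) and in 2303 of 11477 tested genes (20.1%). A match is a description of the letters and not evidence of a bound site. The list was chosen for glycolysis and hypoxia, so its share of matches does not bear on the effects measured here. Ankrd37, whose difference of effects did not pass (edgeR adjusted p = 0.544), also held a match. The stretches around the match nearest to the start are shown for the 4 members with the smallest adjusted p, with matches in capitals, on GRCm38.p6. They are Egln3 at chr12:54204069-54204124 (minus strand), Pgam1 at chr19:41911727-41911791 (plus), Bnip3 at chr7:138909579-138909643 (minus) and Slc2a1 at chr4:119108679-119108743 (plus).
Egln3: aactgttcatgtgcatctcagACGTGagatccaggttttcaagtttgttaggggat
Pgam1: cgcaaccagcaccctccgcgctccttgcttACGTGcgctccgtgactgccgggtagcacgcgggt
Bnip3: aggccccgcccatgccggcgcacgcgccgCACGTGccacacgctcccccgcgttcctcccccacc
Slc2a1: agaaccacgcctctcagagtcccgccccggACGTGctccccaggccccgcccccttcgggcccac
The glycolytic enzyme Pgam1, the mitophagy gene Bnip3 and the glucose transporter Slc2a1 fell by 0.80, 0.95 and 1.40 in the knockout and changed by 0.16, 0.01 and 0.46 with WM-3835, where none of the 3 passed.

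PPARs are nuclear receptors that sense fatty acids. Of 27 of their targets tested, 12 rose and 1 fell with WM-3835 (backgrounds 9.34% and 9.35%). In the knockout 3 rose and 3 fell (backgrounds 6.12% and 8.06%). Differences of effect were called at 11 (background 10.1%), with the knockout effect the lower at 10. Pdk4, a kinase that holds back pyruvate oxidation (Entrez ID 27273, chromosome 6, 5483351 to 5496278), was at 4.45, 5.58 and 9.52 CPM in control and 5.48, 6.11 and 5.21 CPM in knockout libraries. With DMSO it was at 2.66, 1.57 and 2.43 CPM and with WM-3835 at 41.4, 42.0 and 38.5 CPM, so only the WM-3835 libraries stood high. The rise of 4.17 (SE 0.26) and the change of -0.21 (SE 0.24) in the knockout differed by -4.38 (SE 0.34, adjusted p = 3.46e-07). Angptl4, a secreted inhibitor of lipoprotein lipase, was at 1.25 to 4.36 CPM (control), 1.29 to 2.89 CPM (knockout), 0 to 0.559 CPM (DMSO) and 11.9 to 13.0 CPM (WM-3835). Acot1, an acyl-CoA thioesterase with a near-identical neighbour, was at 150, 159 and 153 CPM with WM-3835 and at 20.5 to 40 CPM in the other groups. Acadl, an enzyme of fatty acid oxidation, changed by -0.07 (SE 0.08) and rose by 1.02 (SE 0.08). Cpt1a, which brings fatty acids into mitochondria, rose in both, by 0.33 and 1.13. Plin2, a coat protein of lipid droplets named after its values were seen, was the member called in opposite ways, falling by 1.03 (SE 0.23) and rising by 1.10 (SE 0.23). Leaving out a library gave 10 to 12 differences. Differences numbered 8 and 12 in the Xist fits, with median differences of -0.59 and -0.70 against -0.86, 12 rises with WM-3835 in each, and in the knockout 1 rise in each and 0 and 3 falls.

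Of 23 genes of sterol synthesis and uptake tested, 9 fell and 1 rose in the knockout (background of falls 8.06%). With WM-3835 7 rose and 1 fell (background of rises 9.34%). The effects differed at 8 (background 10.1%), all with the knockout effect the lower. Fdps, an enzyme of the mevalonate pathway, was at 49.7, 51.0 and 49.0 CPM in control and 37.4, 30.7 and 46.1 CPM in knockout libraries. It was at 41.0, 43.0 and 43.4 CPM with DMSO and 55.0, 58.5 and 56.1 CPM with WM-3835, changes of -0.39 (SE 0.12) and 0.41 (SE 0.12). Neither pair of groups overlapped. Insig1, a brake on sterol synthesis, rose by 0.80 with WM-3835 and changed by -0.20 (SE 0.08, adjusted p = 0.119) in the knockout, which did not pass. The falls in the knockout numbered 4 without control 3 and 5 without knockout 1 or knockout 2, and the rises with WM-3835 4 without DMSO 1 or WM-3835 2. With each comparison fitted on its own 6 libraries 3 fell in the knockout. The Xist fits called 2 and 3 differences and 1 and 2 falls in the knockout, with median differences of -0.29 and -0.28 against -0.47.

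Of 20 interferon response genes tested, 13 rose and 1 fell with WM-3835 (background of rises 9.34%). In the knockout 1 rose and 0 fell (background of rises 6.12%). The effects differed at 9 (background 10.1%). The median changes were 0.00 in the knockout and 0.45 with WM-3835. Irf7, a transcription factor that amplifies interferon production, was at 475, 493 and 486 CPM in control and 459, 472 and 526 CPM in knockout libraries. It was at 319, 357 and 292 CPM with DMSO and 536, 603 and 571 CPM with WM-3835, a difference of effects of -0.82 (SE 0.11, adjusted p = 9.75e-05). The antiviral gene Oasl1 was at 40.1 to 42.1 CPM in control, 41.2 to 51.0 in knockout and 42.9 to 50.3 CPM in WM-3835 libraries, and only its DMSO libraries were low, at 19.9 to 24.2 CPM. Oas1a and Ifit2, also antiviral, rose by 0.54 and 0.60 with WM-3835 and changed by -0.01 and -0.31 in the knockout. Ifih1, a sensor of double-stranded RNA, was the member that rose in both, by 0.26 and 0.61. The list's median for DMSO minus control was -0.32 and for WM-3835 minus knockout 0.12. Differences were called at 14 members without control 1, and at 5 without knockout 1, DMSO 3 or WM-3835 2. Differences numbered 2 in either Xist fit, with median differences of -0.32 and -0.34 against -0.42 and 13 rises with WM-3835 in each.

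Of 22 mitosis genes tested, 5 fell and 0 rose in the knockout (background of falls 8.06%). With WM-3835 7 rose and 0 fell (background of rises 9.34%). The effects differed at 10 (background 10.1%), with the knockout effect the lower at each. Bub1b, a spindle checkpoint kinase, was at 18.1, 22.2 and 27 CPM in control and 15.8, 15.6 and 13.9 in knockout libraries, and at 17.2, 19.2 and 17.2 CPM with DMSO and 26.4, 25.2 and 25.1 with WM-3835. Its changes were -0.57 (SE 0.15) and 0.52 (SE 0.15), a difference of -1.09 (SE 0.21, adjusted p = 0.00183). The mitotic kinase gene Plk1 fell by 0.61 and rose by 0.48. Of 30 genes of DNA replication, 13 rose and 0 fell with WM-3835 (background of rises 9.34%). In the knockout 2 rose and 0 fell (background of rises 6.12%). The median changes were 0.41 with WM-3835 and 0.09 in the knockout. Differences, given below, were near their background of 10.1%. Without control 2, 4 rose in the knockout, and without knockout 2 or knockout 3, 1 did. The effects differed at 4, and the Xist fits called 0 and 1, with a median difference of -0.33 in every one of these fits. Among these differences was that of the helicase subunit Mcm6, which changed by -0.29 (SE 0.11, adjusted p = 0.097) and rose by 0.63. Cdc7, a kinase that starts replication, rose in both, by 0.80 and 0.62, a call that held in 6 of the 12 fits without a library. The mitosis counts depended on single libraries. Differences were called at 16 members without control 1, at 5 without WM-3835 3, at 4 without control 3, knockout 1, DMSO 1, WM-3835 1 or WM-3835 2, and at 3 without DMSO 3. With each comparison fitted on its own 6 libraries 0 fell in the knockout and 16 rose with WM-3835. The rises with WM-3835 numbered 1 without DMSO 1, 2 without DMSO 3, 3 without WM-3835 1, WM-3835 2 or WM-3835 3, 4 without DMSO 2 and 11 without control 3, and the falls in the knockout 10 without control 1, 0 without control 3 and 1 without knockout 1. In either Xist fit 1 difference and 0 falls in the knockout were called, with median differences of -0.77 and -0.78 against -0.80, and the rises with WM-3835 numbered 4 and 5.

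Immediate early genes are induced within minutes of a stimulus. Of 21 tested, 14 fell and 0 rose in the knockout (background of falls 8.06%). With WM-3835 3 rose and 2 fell (backgrounds 9.34% and 9.35%). The effects differed at 8 (background 10.1%), all with the knockout effect the lower. The list summed to 14807 to 17018 CPM in control, 11141 to 12648 in knockout, 8192 to 10017 in DMSO and 7728 to 10489 in WM-3835 libraries. Its median was -0.96 for DMSO minus control and -0.36 for WM-3835 minus knockout. Dusp1, a phosphatase that turns off MAP kinases, was at 202, 174 and 194 CPM in control and 94.2, 96.6 and 113 CPM in knockout libraries. It was at 101, 86.5 and 86.8 CPM with DMSO and 183, 135 and 138 CPM with WM-3835, so the groups exchanged places, with a difference of -1.64 (SE 0.16, adjusted p = 4.42e-06). Dusp6, of the same family, fell by 0.37 and rose by 0.87. The transcription factors Fosb and Nr4a1 fell in both, by 1.11 and 0.95 and by 0.49 and 0.49. Differences were called at 5 members without control 3 or knockout 1 and at 4 without knockout 2, DMSO 2, DMSO 3 or WM-3835 1. The falls in the knockout numbered 9 without knockout 1 or knockout 2, and those with WM-3835 5 without WM-3835 1. Either Xist fit called 3 differences and 3 falls in the knockout, with median differences of -0.35 and -0.33 against -0.47.

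The other lists of stress genes did not share a direction. Of 20 genes of the integrated stress and unfolded protein responses, 5 rose and 2 fell in the knockout (backgrounds 6.12% and 8.06%). With WM-3835 3 rose and 6 fell (backgrounds 9.34% and 9.35%). The effects differed at 10 (background 10.1%), with the knockout effect the higher at 8. Sesn2, a brake on the growth kinase mTORC1, rose by 0.62 (SE 0.09) in the knockout and changed by -0.15 (SE 0.09) with WM-3835. Hsp90b1, a chaperone of the endoplasmic reticulum, changed by 0.24 (SE 0.12) and fell by 0.67 (SE 0.12). The exceptions were Ddit4, another brake on mTORC1 that hypoxia also induces, and Xbp1, a transcription factor of the unfolded protein response, which fell by 0.71 and 0.38 and rose by 0.36 and 0.37. Psat1, an enzyme of serine synthesis, rose in both, by 0.41 and 0.38. Differences numbered 5 in either Xist fit, with median differences of 0.55 and 0.60 against 0.58, and 1 and 2 rises in the knockout. The rises in the knockout numbered 8 without control 1, 3 without control 3 or knockout 3 and 2 without knockout 1, and the falls with WM-3835 10 without control 3 and 3 without DMSO 3 or WM-3835 2. With each comparison fitted on its own 6 libraries, 11 fell with WM-3835 and 2 rose in the knockout. Of 17 targets of NRF2 and AHR, which respond to oxidants and foreign compounds, 5 differed (background 10.1%), with the knockout effect the lower at 4. Gclc, the enzyme that limits glutathione synthesis, rose by 0.96 (SE 0.10) with WM-3835 and changed by 0.06 (SE 0.10) in the knockout, and Nqo1, a quinone reductase, rose by 0.61 (SE 0.09) in the knockout and changed by 0.13 (SE 0.09) with WM-3835. That count was 2 without DMSO 1, DMSO 2, WM-3835 1 or WM-3835 3, 3 without control 1, knockout 1, knockout 2 or DMSO 3, and 1 in the Xist fits, with median differences of -0.29 and -0.27 against -0.36. Of 15 heat shock genes 1 differed, near the background of 10.1%. This was the mitochondrial chaperonin Hspd1, with the knockout effect the higher (0.47, SE 0.12, adjusted p = 0.0149). The number that differed was 2 without control 2 or knockout 1 and 3 without control 3.

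Of the genes of KAT7 complexes, Kat7 differed as described above. Apart from Kat7, no difference was called at the 9 other genes of its complexes, and the 95% interval of each difference lay within 1 on the log2 scale. With Kat7 counted, 6 of the 10 had an unadjusted p of the difference under 0.05 in edgeR, against 4367 of all 18670 genes tested. With Kat7 counted, 2 genes of the complexes differed without control 1 or control 3, and 3 without control 2 and with DESeq2. Jade2, a scaffold that directs KAT7 to histone H4, was at 70.8 to 71.9 CPM (control), 91.3 to 99.7 CPM (knockout), 64.2 to 71.1 CPM (DMSO) and 101 to 110 CPM (WM-3835). The rises of 0.43 (SE 0.08) and 0.66 (SE 0.08) differed by -0.23 (SE 0.11, adjusted p = 0.206). Of 12 other acetyltransferase genes 1 differed, near the background of 10.1%. This was Kat2b, which rose by 0.60 with WM-3835 and changed by 0.08 (SE 0.09) in the knockout. The difference was not called with Xist as a covariate. The median difference of the 12 genes was -0.07 and -0.03 in the Xist fits against -0.05. The coactivator Ncoa3 rose in both, by 0.46 and 0.43, with a difference of 0.03 and an interval of -0.21 to 0.27.

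Among the genes with the largest differences that were called in every fit without a library, several belong to none of the groups above. Hbegf, a growth factor that activates the EGF receptor, was at 92.7, 50.7 and 35.3 CPM in control and 6.85 to 9.26 CPM in knockout libraries. It was at 5.16 to 8.98 CPM with DMSO and 8.03 to 9.89 CPM with WM-3835, so the controls alone were high, and the difference was -3.42 (SE 0.40, adjusted p = 2.17e-05). Mcpt2, a mast cell protease, was at 3.41 to 11 CPM in control and at 0.147 to 1.59 CPM in all other libraries, a difference of -3.94 (SE 0.76, adjusted p = 0.00202). Plekhd1 and Tmem44 rose by 2.74 and 2.15 with WM-3835 and changed by -1.12 and -1.13 in the knockout, where neither passed. In the other direction, Palm3, a membrane-associated paralemmin, was at 0.574 to 0.806 CPM with WM-3835 and at 3.41 to 5.6 CPM in all 9 other libraries, a difference of 3.06 (SE 0.44, adjusted p = 0.000159). Lrrc23, a protein of sperm and cilia, was at 1.50 to 2.79 CPM with WM-3835, 14.9 to 23.0 with DMSO, 7.05 to 16.3 in control and 6.23 to 12 CPM in knockout libraries. Deup1, which builds centrioles in multiciliated cells, fell by 3.37 (SE 0.55) with WM-3835 and changed by 0.03 (SE 0.50) in the knockout. Rprm and Vrtn fell by 2.41 and 2.31 with WM-3835 and changed by 0.22 and 0.31 in the knockout. The taste receptor gene Tas2r109 had 0 counts in the 3 WM-3835 libraries and 0.389 CPM on average with DMSO, at least 14.5-fold lower if 3 counts over the group are taken as the floor. It was at 3.31 to 7.55 CPM in control and 3.03 to 5.89 CPM in knockout libraries. Xist, described above, had a difference of 8.48 (SE 1.41), which did not pass with limma-voom or when only knockout 3 was kept.

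Pdgfra, a receptor known from fibroblasts, was at 2.14 to 10.1 CPM in control and 3.30 to 5.93 in knockout libraries, and at 0.86 to 1.33 CPM with DMSO and 14.3 to 21.6 with WM-3835, a difference of -4.59 (SE 0.57, adjusted p = 4.17e-05). Of the 15 fibroblast markers, 4 fell in the knockout (background 8.06%). With WM-3835 3 rose and 3 fell (backgrounds 9.34% and 9.35%), and 4 differed (background 10.1%). The falls in the knockout numbered 7 without control 2, and those with WM-3835 5 without control 2 or knockout 2. The Xist fits called 1 fall in the knockout and 3 and 2 differences, with median differences of -0.87 and -0.85 against -0.70. Dcn, a collagen-binding proteoglycan, fell in both, from 58.0 to 80.1 CPM down to 13.9 to 24.4 CPM and from 15.6 to 22.0 CPM down to 7.18 to 10.8 CPM. Genes of matrix and TGF-beta response are held by fibroblasts as well as TECs, and the part of the fibroblast markers in their changes was not tested. Of 18 of these matrix and TGF-beta genes, 9 fell and 1 rose in the knockout, and 4 fell and 2 rose with WM-3835. The effects differed at 8, against the same backgrounds. Without knockout 1 or knockout 2, 5 fell in the knockout. The Xist fits called 5 falls and 5 and 6 differences, with median differences of -0.16 and -0.13 against -0.15. Lox, which cross-links collagen, was at 97.2 to 105 CPM with DMSO and at 236 to 401 CPM in all other libraries, a difference of -1.53 (SE 0.18, adjusted p = 1.9e-05). Timp3, a protease inhibitor of the matrix, fell in both, by 0.63 and 1.22. A difference was called at 0 of the 8 thymocyte, 7 endothelial, 12 macrophage and 4 red cell markers tested, in edgeR, DESeq2 and limma-voom, and 1, a macrophage marker, had an unadjusted p under 0.05 in edgeR. Without control 1 an endothelial marker differed, and without WM-3835 2 a macrophage marker.

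A difference of effects can lie between the untreated groups, between the treated groups or in both, since it equals the gap between knockout and WM-3835 cultures less the gap between control and DMSO cultures. Of the 1887 genes whose effects differed, the gap between DMSO and control was at least 2 times that between WM-3835 and knockout at 758 (40.2%), as for Aire, Hbegf, Ccl9 and Lox. The reverse held at 567 (30%), as for Palm3, Acot1 and Prss16. For the other 562 (29.8%), such as Cntn2, both gaps counted. Over all tested genes the shares were 28.4% and 27.8%. Among the 244 genes called in opposite ways the counts were 111, 50 and 83. DMSO differed from control at 4600 genes (24.6%), more than either treatment differed from its own control. The untreated groups differ in genotype label, in tamoxifen or DMSO and in their levels of Xist and Ddx3y, and these cannot be told apart here.

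**Figure D5:**
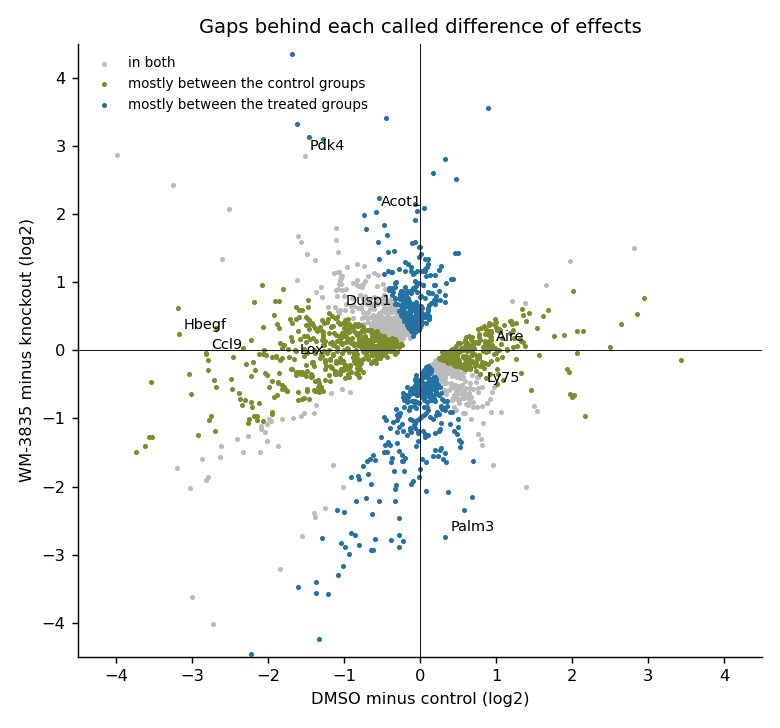
Each point is a gene whose effects differed, placed by the log2 gap between the untreated groups (DMSO minus control, horizontal) and between the treated groups (WM-3835 minus knockout, vertical); 31 genes beyond 4.5 are outside the frame. Aire, Hbegf, Ccl9 and Lox lie along the horizontal axis, where the untreated groups differ, and Palm3 and Acot1 lie near the vertical axis, where the treated groups differ.

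A difference that was not called is not evidence that the effects were alike, so the width of its interval was examined. The 95% interval of the difference lay within 1 on the log2 scale at 9588 of 18670 genes (51.4%). This depended on the level of expression, with shares of 0.0428%, 27.6%, 85% and 92.7% from the lowest to the highest quartile. Among the 757 genes called the same way 521 (68.8%) had such an interval, so that for these the effects were measured to be within 2-fold of each other. The genes that fell in both were expressed at lower levels than those that rose, with median log2 CPM of 4.24 and 6.38. For Pgc, Bpifb5, Thy1 and the other largest falls the intervals were wider than 1.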

How the data were processed

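RNA from sorted TECs of 12 cultures (4 groups of 3 biological replicates, per the labels) was sequenced as 75-base paired-end reads from a library kit that does not mark strand, per the labels' protocols. The deposited values were raw counts per gene, made by the authors with featureCounts for genome build mm10 (both named in the submitters' processing notes). Which aligner, gene annotation and strand option they used is not given in the sources used here. Libraries held 26656847 to 52368012 counts. The 1312 genes without a symbol (0.657 to 0.743% of counts) were left out, and no per-sample column was left unused.

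The members, gene lists and rules were chosen with earlier results of these data known. Counts were filtered with filterByExpr, scaled by TMM and fitted as 4 group means over all 12 libraries with edgeR 4.0.16 (R 4.3.3). Quasi-likelihood tests gave the knockout effect, the inhibitor effect and their difference, with Benjamini-Hochberg adjustment over 18670 genes and a threshold of 0.05. Standard errors are the log2 change over the root of the F statistic, and 95% intervals are per gene. All groups share 1 spread trend. The method was run on simulated data with the same spread in every group and changes in the knockout alone. The unequal spreads of the real groups were not simulated, so how they affect the calls was not tested in this way. P-values set each change against a spread estimated over all 12 libraries, and not over the compared groups alone.

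Alternatives were DESeq2 1.42.0, limma-voom (limma 3.58.1) without and with quality weights per group, scaling by RLE or by upper quartiles, own 6 libraries per comparison, other filters, replicate blocks, Xist as a covariate, knockout 3 alone, a threshold of 0.01 and each library left out. Counts per gene list under these fits, and the correlation without each library, were added after seeing the data. Named genes were Kat7, Aire and Xist, and, above a mean log2 CPM of 1, the 8 most positive and 8 most negative differences called without each library, the 5 largest of each opposite pattern and the 8 largest of each common direction; of each list described, the 4 smallest adjusted p of the difference and 2 called the same way. Others are said to be chosen afterwards or follow the promoter rule. Some genes these rules pick are not reported here. Predicted, clone, histone, ribosomal protein and immunoglobulin genes were not named. Promoters are RefSeq windows of 250 bases (GRCm38.p6) of genes with exactly 1 window. Gene positions are RefSeq's for 18404 tested genes (98.6%).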

Additional observations from a re-analysis of the deposited data

How the results depend on the processing

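Leaving out single libraries gave 1346 to 2232 genes whose effects differed (1887 with all libraries), 549 to 844 called the same way (757), 149 to 316 called in opposite ways (244), 369 to 642 called in the knockout alone with a difference (496) and 642 to 1118 with the inhibitor alone (935). In the same order, Xist as a covariate gave 693, 192, 50, 112 and 467, knockout 3 as the only knockout library gave 784, 293, 53, 147 and 518, and an adjusted p under 0.01 gave 963, 318, 78, 222 and 536. Of the 693 and 784 differences, 639 and 720 were among the 1887. Limma-voom with quality weights per group gave 239 genes in the knockout alone and separate fits of 6 libraries 250; over all genes these fits called 1180 and 1157 in the knockout (2646 in the shared fit) and 6589 and 6070 with the inhibitor (3490). The Xist covariate and knockout 3 alone called 482 and 704 in the knockout and 3412 and 3397 with the inhibitor. The correlation across genes was 0.37 with CPM over 1 in at least 3 libraries and 0.19 to 0.29 without single libraries. The difference of effects of Xist was -0.011 once Xist was the covariate, which its construction gives. Upper-quartile scaling raised the share of falls among inhibitor calls from 50 to 60.1%. Over the named genes, 183 alternative values of a called difference no longer passed and 1 reversed its sign. At differences not called with all libraries, 78 values passed newly in the same direction. The other 4337 were counted as unchanged, which includes any change of sign at a difference not called with all libraries. A replicate block within each experiment gave 1884 differences and a common replicate block 2027, with 259 and 270 genes called in opposite ways; the numbers were not treated as pairs, since the labels tie them to no shared source, same-numbered controls and knockouts had correlations of deviations of -0.01, -0.02 and 0.01, and same-numbered DMSO and WM-3835 libraries 0.11, 0.16 and 0.02; DMSO 1 and DMSO 2 correlated best with their own number and DMSO 3 did not. The causes were not tested. The share of genes with an interval of the difference within 1 was smallest in the lowest quartile of expression, at 0.0428%.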
